A study of Mus musculus with 6 samples.

Results

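Proteasome genes were followed in ATAC-seq of mouse intestinal organoids, an assay in which a transposase cuts accessible DNA and the cuts are sequenced. The genes were the protein-coding autosomal genes whose symbol is Psma, Psmb, Psmc, Psmd, Psme, Psmf or Psmg followed by a digit, and 50 matched. A consensus peak, a region called open and counted in every library, was assigned to the protein-coding gene whose annotated end (start or stop of the gene) lay nearest to its centre, within 50 kb. This gave 113 of 90823 peaks, at 42 of the 50 genes. The furthest assigned peak lay 47179 bp away, and the next beyond the limit 51129 bp. Of the 113, 41 peaks at 39 genes lay within 1 kb of the gene's end and are called gene-end peaks, out of 14623 in the data. The other 72 lay further away, at 28 genes, out of 57786 such peaks. The peaks nearest to the 1 kb limit were at Psmb10 (765 bp, inside) and Psmd14 (1007 bp, outside). All 113 passed the filter on low counts. Of the 8 genes left, 5 have an end peak that lies nearer to a neighbour's end, and Psme2b, Psmb11 (a beta subunit of the thymus) and Psma8 (an alpha subunit of the testis) have no peak.

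The organoids grew from mouse crypts in Matrigel with EGF, Noggin, R-spondin, N-acetylcysteine, CHIR-99021, Y-27632, B27 and N2, and all groups shared this medium. They received vehicle, 25 µM arachidonic acid (AA), a precursor of prostaglandins, or PGE2 (prostaglandin E2) at 50 nM, each for 3 days. The design text names the 6,16-dimethyl analogue of PGE2 and the protocol names PGE2. The labels used here give neither the strain and age of the mice nor the content of the vehicle. Each of the 3 groups had 2 libraries, made from sorted epithelial cells. Whether the 2 came from separate cultures is not stated, so p-values measure only the spread between these libraries, which may be technical.

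Library totals ran from 12374232 to 14236985 counts, and the median proteasome gene-end peak held 260 to 336 counts per library. The 7 epithelial marker genes listed all had a gene-end peak (summed 444 to 465 CPM, counts relative to a library total scaled by TMM, edgeR's trimmed mean of log ratios), while 2 of 7 immune, 1 of 6 stromal and 1 of 4 endothelial marker genes had one. The immune sum was 34.4 and 36.2 CPM in the vehicle, 45.8 and 40 in the AA and 39.8 and 43.6 in the PGE2 libraries, and no gene-end peak was assigned to Ptprc, Cd3e, Cd79a or Lyz2. Its part in the results was not tested. The share of counts in gene-end peaks was 31.94% and 31.44% in the vehicle, 32.34% and 32.86% in the AA and 34.33% and 35.8% in the PGE2 libraries. A change in the share of cells of one kind and a change of accessibility per cell cannot be told apart in such bulk libraries.

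The proteasome is the protease that degrades proteins tagged with ubiquitin. Its 20S core is a barrel with outer rings of alpha subunits (Psma), which gate the channel, and inner rings of beta subunits (Psmb), of which Psmb5, Psmb6 and Psmb7 carry the active sites. In immune cells and under interferon these are replaced by Psmb8, Psmb9 and Psmb10. The 19S cap unfolds substrates with a ring of ATPases (Psmc) and binds and trims ubiquitin with non-ATPase subunits (Psmd). Psme genes encode other activators, Psmf1 an inhibitor, and Psmg1 to Psmg4 chaperones of core assembly. These genes are expressed in nearly all cells, and the intestinal epithelium renews its proteins and cells quickly.

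The RefSeq promoter table (GRCm38.p6, the assembly of mm10) held a window for 42 of the 50 genes. The 250 bases upstream of 7 start sites are shown, chosen from the gene-end results that follow. Psme3, Psmd11, Psmc6, Psmg1, Psmd1 and Psmd14 had the smallest p among proteasome gene-end peaks higher with PGE2. Psmb8 had the smallest among the lower ones. Psme3, Psmd11, Psmc6 and Psmg1 hold the letters CCGGAAG, and Psmd1, Psmd14 and Psmb8 do not. The start-site peak of Psma3, which is not a gene-end peak, also rose with PGE2 (log2 0.52). Its window holds no CCGGAAG and is not shown. Each window lies whole inside its gene-end peak. Sequences run 5′ to 3′ on the gene's strand and end at the base before the start site. Capitals mark CCGGAAG, the core that ETS factors are known to bind, or its reverse complement. The 7 windows, and this motif out of 7 searched, were chosen after the values were seen.
Psme3, chr11:101315963-101316212, plus strand: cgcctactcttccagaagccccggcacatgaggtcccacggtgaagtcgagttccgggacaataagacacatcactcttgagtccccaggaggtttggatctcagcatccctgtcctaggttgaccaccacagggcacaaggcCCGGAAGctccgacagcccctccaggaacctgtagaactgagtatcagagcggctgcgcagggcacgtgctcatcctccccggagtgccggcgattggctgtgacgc
Psmd11, chr11:80428365-80428614, plus strand: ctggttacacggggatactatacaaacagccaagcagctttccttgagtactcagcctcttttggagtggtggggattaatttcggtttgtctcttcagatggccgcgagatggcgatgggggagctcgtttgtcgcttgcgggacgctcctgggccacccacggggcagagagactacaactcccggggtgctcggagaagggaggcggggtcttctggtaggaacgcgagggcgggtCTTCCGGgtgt
Psmc6, chr14:45329574-45329823, plus strand: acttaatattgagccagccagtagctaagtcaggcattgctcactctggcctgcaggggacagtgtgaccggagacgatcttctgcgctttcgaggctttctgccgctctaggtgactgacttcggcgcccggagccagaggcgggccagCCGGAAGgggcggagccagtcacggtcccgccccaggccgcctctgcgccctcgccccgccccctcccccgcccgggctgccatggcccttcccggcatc
Psmg1, chr16:95990961-95991210, minus strand: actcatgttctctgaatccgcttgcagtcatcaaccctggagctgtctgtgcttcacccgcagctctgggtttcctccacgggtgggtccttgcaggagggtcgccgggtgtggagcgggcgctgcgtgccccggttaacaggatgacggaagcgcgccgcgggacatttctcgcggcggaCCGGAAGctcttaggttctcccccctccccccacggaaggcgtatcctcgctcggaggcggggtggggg
Psmd1, chr1:86064369-86064618, plus strand: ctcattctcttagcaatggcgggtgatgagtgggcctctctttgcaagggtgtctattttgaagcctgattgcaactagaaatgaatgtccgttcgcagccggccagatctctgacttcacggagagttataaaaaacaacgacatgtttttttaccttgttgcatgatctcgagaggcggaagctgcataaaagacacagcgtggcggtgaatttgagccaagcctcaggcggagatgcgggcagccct
Psmd14, chr2:61711444-61711693, plus strand: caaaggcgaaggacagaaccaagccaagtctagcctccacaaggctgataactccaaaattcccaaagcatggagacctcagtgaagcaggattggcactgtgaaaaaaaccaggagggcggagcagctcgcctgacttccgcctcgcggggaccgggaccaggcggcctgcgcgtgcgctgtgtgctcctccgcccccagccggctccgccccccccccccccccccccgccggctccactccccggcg
Psmb8, chr17:34197945-34198194, plus strand: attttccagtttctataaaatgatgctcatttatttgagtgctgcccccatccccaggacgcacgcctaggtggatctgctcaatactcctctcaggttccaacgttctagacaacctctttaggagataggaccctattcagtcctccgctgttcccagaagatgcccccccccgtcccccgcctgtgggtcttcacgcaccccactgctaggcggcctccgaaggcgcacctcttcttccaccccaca

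Proteasome gene-end peaks were moderately to strongly accessible in vehicle organoids. On the scale of CPM per kb of peak, which allows levels of different peaks to be set side by side, their median was 19.6 (range 8.57 to 51.7), against 14.9 for all gene-end peaks, and 28 of 41 lay above that value. The highest levels were at Psmb3 (51.7), a structural beta subunit, and Psma5 (50.7), an alpha subunit. Psme3ip1, whose product binds the activator Psme3 and is no subunit, followed at 49.8. The Psmb3 peak also lies within 1 kb of an end of Pcgf2, and the Psme3ip1 peak within 1 kb of ends of Rspry1 and LOC115486880. The lowest was the downstream peak of the chaperone gene Psmg2 (8.57), followed by the catalytic subunit Psmb7 (9.56). The alpha ring had a median of 27.5, the 19S ATPases 25.4, the 19S non-ATPases 17.6, the constitutive beta ring 17, and the core assembly chaperones 11. Ranges of these classes overlapped. Other proteasome peaks were lower, with a median of 6.46 against 8.03 for all other assigned peaks.

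**Figure D1:**
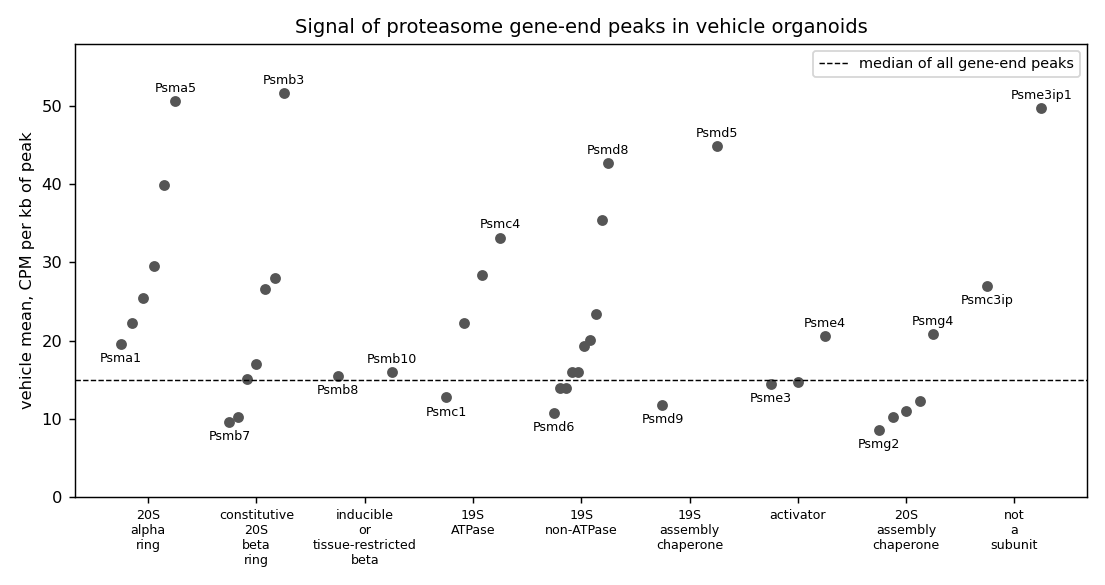
Mean signal of the 41 proteasome gene-end peaks in the 2 vehicle libraries, in CPM per kb of peak (vertical axis), by role (horizontal axis); each point is 1 peak, and the lowest and highest of each role are named. The dashed line is the median of all gene-end peaks, 14.9, and points run from 8.57 for a Psmg2 peak to 51.7 for Psmb3.

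With PGE2, 13 of the 41 proteasome gene-end peaks were higher than in vehicle and 2 lower, by edgeR's quasi-likelihood test with Benjamini-Hochberg adjustment over all tested peaks at 0.05. The 13 were Psma4, Psmb4, Psmb7, Psmc6, Psmd1, Psmd3, Psmd6, Psmd7, Psmd11, Psmd12, Psmd14, Psme3 and Psmg1, and at each of them both PGE2 libraries lay above both vehicle libraries. The lower peaks were at Psma2 and Psmb8. Among all gene-end peaks 32.0% were higher and 5.33% lower, so the members' shares (31.7% and 4.88%) were near those of gene ends in general and say nothing particular about proteasome genes. The median log2 change was 0.15 for the members and 0.14 for all gene-end peaks. The shares among all 89347 tested peaks were 14.3% and 10.6%.

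The split depended on the scaling. With gene-end peaks scaled by factors of their own, the median change of all gene-end peaks moved from 0.14 to -0.04 and that of the members from 0.15 to -0.03, and 7 members were higher and 6 lower, beside 20.3% and 19.4% of all gene-end peaks. Under that scaling the 7 higher were Psmb7, Psmc6, Psmd1, Psmd11, Psmd14, Psme3 and Psmg1, and the lower were Psma2, Psma3, Psma5, Psmb8, Psmb10 and Psmg2. The gene-end share of counts, given above, was highest in the PGE2 libraries, and its part in these counts was not tested. DESeq2 gave 7 higher, with 6 of them among the 13, and 0 lower, beside 19.9% and 0.957% of all gene-end peaks. Without either vehicle library fewer members were higher, and the share of all gene-end peaks that were higher fell as well.

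**Figure D2:**
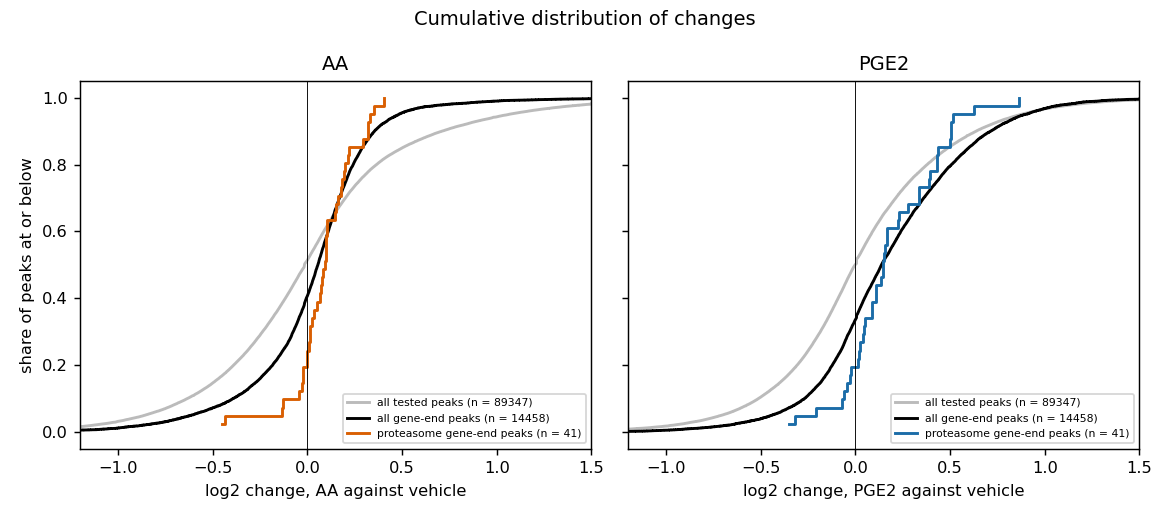
Share of peaks (vertical axis) at or below each log2 change (horizontal axis), for AA and for PGE2 against vehicle, in all tested peaks, all gene-end peaks and the 41 proteasome gene-end peaks. With PGE2 the proteasome curve crosses that of all gene-end peaks near the middle, with medians of 0.15 and 0.14, and is steeper.

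Genes of the 19S non-ATPase subunits held 7 of the 13 higher peaks: 7 of 10 were higher with PGE2 and 0 lower, with a median log2 change of 0.37 and a range of 0.01 to 0.51. Among all gene-end peaks the shares were the 32.0% and 5.33% given above, and with so few peaks in the role nothing particular to it is read from the count. The roles were listed with earlier results of these data known, and this count has no test of its own. It fell to 3 (Psmd1, Psmd11 and Psmd14) with the separate scaling, beside 20.3% of all gene-end peaks. With DESeq2 it was also 3, beside 19.9%. Without either vehicle library it fell as well, as did the share of all gene-end peaks. It also fell without PGE2 replicate 1, where Psmd3 and Psmd6 were not called and the general share did not fall.

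Psmd14, the deubiquitinase that removes ubiquitin chains at the cap, had a peak 39 bp from its start (chromosome 2, 61711205 to 61712262). It held 17.3 and 16.3 CPM in the vehicle, 20.4 and 21.6 in the AA and 23.6 and 24.2 in the PGE2 libraries. All 3 groups were apart, in the order vehicle, AA, PGE2. The rise with PGE2 was 1.42-fold (log2 0.51, SE 0.10; adjusted p = 7.38e-05). Psmd1, a scaffold of the base of the cap, had 18.7 and 17.6 CPM in the vehicle, 23.6 and 24.5 in the AA and 24.6 and 26.8 in the PGE2 libraries (chromosome 1, 86064102 to 86065407). Both treatments lay above vehicle, and the PGE2 change was also 1.42-fold (log2 0.50, SE 0.09; adjusted p = 5.78e-05). Psmd11, a lid subunit, held 28.9 and 31.6 CPM in the vehicle, 35.2 and 33.3 in the AA and 36.9 and 44.8 in the PGE2 libraries (chromosome 11, 80428208 to 80429501). The PGE2 libraries were the highest but also the furthest apart, with a 1.35-fold rise (log2 0.43, SE 0.08; adjusted p = 0.000103).

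The lid subunits Psmd6, Psmd12, Psmd3 and Psmd7, the last the partner of Psmd14 in the deubiquitinating pair, rose 1.26-fold to 1.35-fold with PGE2 (log2 0.43, 0.39, 0.34 and 0.34). The remaining non-ATPase genes did not pass: the ubiquitin receptor Psmd4 had a log2 change of 0.17 (adjusted p = 0.113), the lid subunit Psmd8 0.16 (adjusted p = 0.125) and the base scaffold Psmd2 0.01 (adjusted p = 0.952).

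**Figure D3:**
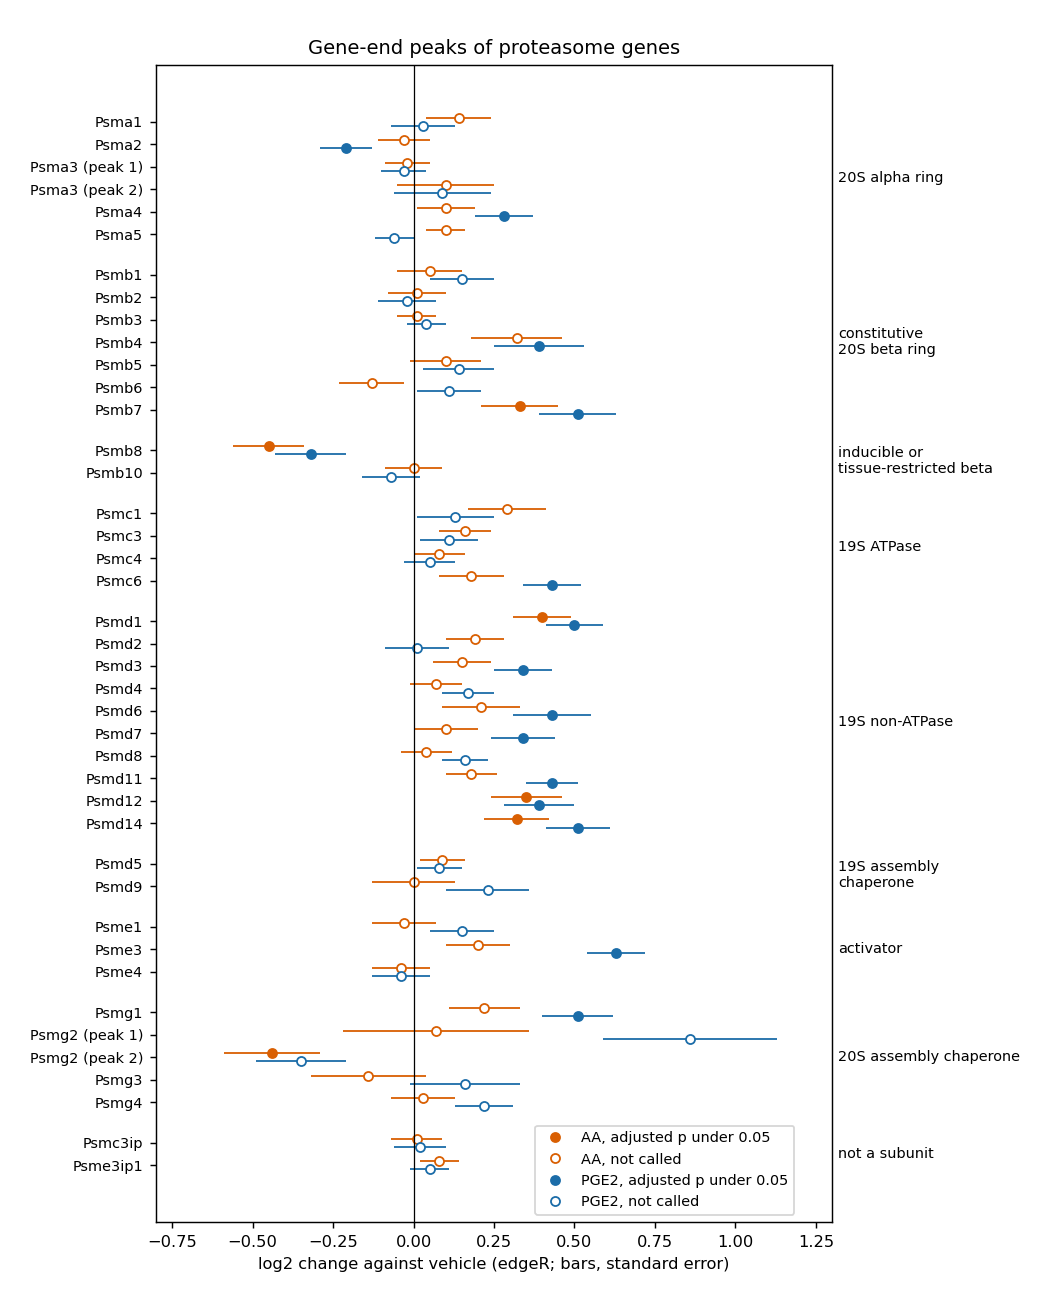
Log2 change against vehicle (horizontal axis) of each of the 41 proteasome gene-end peaks by role, for AA and PGE2, with standard errors from the edgeR fit; filled points passed an adjusted p of 0.05. Of the 10 peaks of 19S non-ATPase genes, 7 are filled to the right for PGE2, and Psmb8 is filled to the left for both.

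Of the 4 peaks at 19S ATPase genes, 1 rose with PGE2. Psmc6 held 22.3 and 25.8 CPM in the vehicle, 25.5 and 28.9 in the AA and 29.6 and 35.2 in the PGE2 libraries (chromosome 14, 45329198 to 45330272). The vehicle and AA libraries overlapped and both PGE2 libraries lay above them (log2 0.43, SE 0.09; adjusted p = 0.000585). Without vehicle replicate 1 the call was lost (log2 0.32; adjusted p = 0.0527). Psmc1, Psmc3 and Psmc4 had PGE2 changes of 0.13, 0.11 and 0.05, and none passed (adjusted p = 0.482, 0.38 and 0.704). Psmd5 and Psmd9, chaperones that assemble the ATPase ring, had 0.08 and 0.23 and did not pass either (adjusted p = 0.437 and 0.2).

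The largest called rise among gene-end members with PGE2 was at Psme3, which encodes a nuclear activator of the core that works without ubiquitin. Its peak lay 49 bp from the start (chromosome 11, 101315661 to 101316864). It held 18.1 and 16.6 CPM in the vehicle, 20.2 and 19.7 in the AA and 27.4 and 26.3 in the PGE2 libraries. The PGE2 libraries stood well above the other 4, a 1.54-fold rise over vehicle (log2 0.63, SE 0.09; adjusted p = 1.51e-06). The other activators gave no call: Psme1, of the interferon-inducible activator, had a log2 change of 0.15 (adjusted p = 0.269) and Psme4, of another activator of the core, -0.04 (adjusted p = 0.771).

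Among the chaperones of core assembly, Psmg1 rose 1.43-fold with PGE2, from 13.6 and 14.3 CPM to 18.4 and 21.4, with AA at 15.9 and 16.6 (chromosome 16, 95990346 to 95991712; log2 0.51, SE 0.11; adjusted p = 0.000244). Its 3 groups did not overlap. The gene-end peak at the start of Psmg2, the partner of Psmg1, also lies within 1 kb of an end of Cep76. It showed the largest PGE2 value of all 41 and did not pass. The peak held 16.7 and 17.4 CPM in the vehicle, 16.9 and 18.9 in the AA and 23.9 and 38 in the PGE2 libraries (log2 0.86, SE 0.27; adjusted p = 0.102). Its PGE2 libraries differed more from each other than the lower of them did from vehicle. DESeq2 called it. Psmg3 and Psmg4 had 0.16 and 0.22 (adjusted p = 0.534 and 0.0749).

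Of 7 peaks at constitutive beta genes, 2 rose with PGE2. Psmb7, which carries the trypsin-like active site, held 9.87 and 10.2 CPM in the vehicle, 12.2 and 13 in the AA and 14 and 14.5 in the PGE2 libraries (chromosome 2, 38643345 to 38644394). The groups did not overlap, and the PGE2 rise was 1.42-fold (log2 0.51, SE 0.12; adjusted p = 0.00102; 0.0785 with DESeq2). Psmb4, a structural subunit, rose 1.31-fold (log2 0.39, SE 0.14; adjusted p = 0.0317), a call lost with DESeq2, separate scaling or library totals and without PGE2 replicate 2 or either vehicle library. The peaks of the other active-site subunits gave no call: Psmb5, with the chymotrypsin-like site, had 14.6 and 13.6 CPM in vehicle and 15.2 and 16 with PGE2 (log2 0.14; adjusted p = 0.366). Psmb6, with the caspase-like site, had 18.6 and 16.2 in vehicle and 19.1 and 18.4 with PGE2 (log2 0.11; adjusted p = 0.496). Both had the opposite sign when gene-end peaks were scaled separately, at -0.03 and -0.07. Psmb1, Psmb2 and Psmb3 lay between -0.02 and 0.15.

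Of 6 peaks at alpha subunit genes, 1 rose and 1 fell with PGE2. Psma4 rose 1.21-fold with PGE2 (log2 0.28, SE 0.09; adjusted p = 0.016), a call lost with DESeq2 or separate scaling and without PGE2 replicate 2 or either vehicle library. The Psma4 peak also lies within 1 kb of ends of Hykk and AY074887. Psma2 fell by 0.21 on the log2 scale (SE 0.08; adjusted p = 0.0439), from 32.7 and 35.8 CPM in vehicle to 29.6 and 29.5, with AA at 33.5 and 33.8. That call was lost without either AA library, without either PGE2 library and without vehicle replicate 2, where the value was -0.14 (adjusted p = 0.368). The peak also lies within 1 kb of an end of Mrpl32. Psma1, Psma3 and Psma5 had PGE2 changes from -0.06 to 0.09 and did not pass.

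Psmb8, which replaces Psmb5 in the immunoproteasome, was lower with both treatments. Its peak (chromosome 17, 34197389 to 34198610) also lies within 1 kb of an end of Tap1, a peptide transporter gene. The peak held 18.1 and 19.8 CPM in the vehicle, 12.7 and 15.2 in the AA and 15.9 and 14.6 in the PGE2 libraries. All 4 treated libraries lay under both vehicle libraries. The fall was 1.37-fold with AA (log2 -0.45, SE 0.11; adjusted p = 0.00117) and 1.25-fold with PGE2 (log2 -0.32, SE 0.11; adjusted p = 0.024). These comparisons share the vehicle libraries. The AA call was lost without AA replicate 1 (log2 -0.31; adjusted p = 0.0991), and the PGE2 call without PGE2 replicate 2 (-0.26; adjusted p = 0.127) or vehicle replicate 2 (-0.25; adjusted p = 0.223). DESeq2 gave neither call (adjusted p = 0.106 and 0.288). The immune marker sum given above comes from only 2 peaks, and any part of immune cells in this fall was not tested.

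Psmb10, which replaces Psmb7, showed no call. It held 24.6 and 29.5 CPM in the vehicle, 26.7 and 27.3 in the AA and 25.5 and 25.9 in the PGE2 libraries. The treated libraries lay between the 2 vehicle libraries. Its PGE2 change of -0.07 became -0.25 and passed (adjusted p = 0.0333) with separate scaling.

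**Figure D4:**
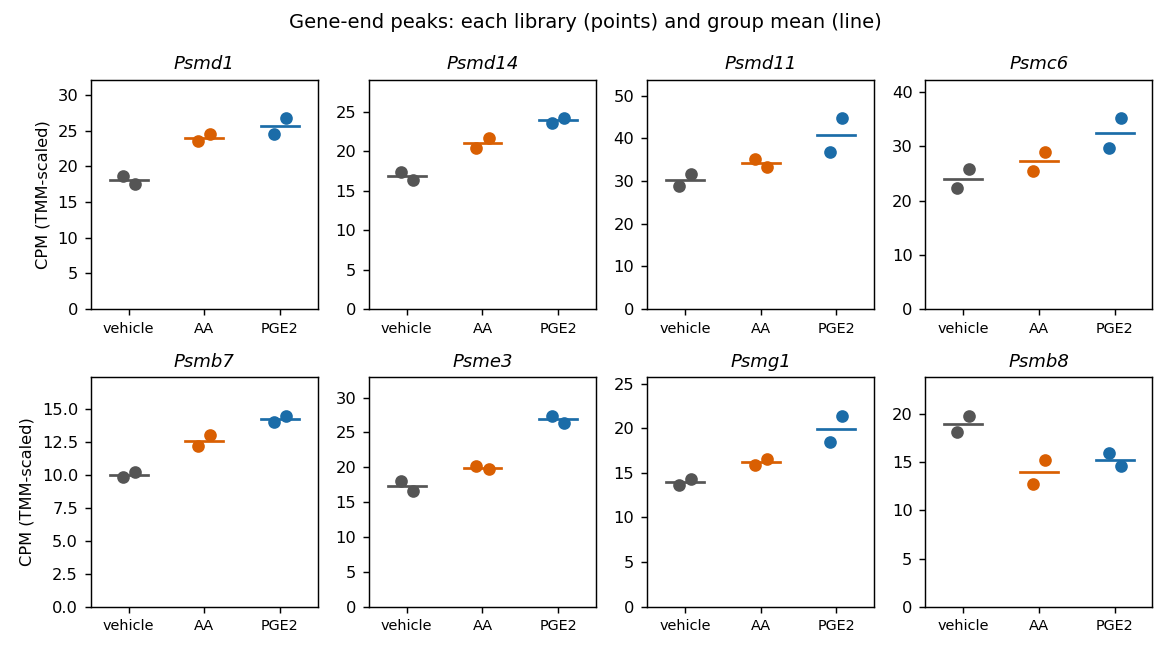
CPM (vertical axis, from 0) of 8 proteasome gene-end peaks in each of the 6 libraries; points are libraries, lines are group means. At Psme3 the PGE2 libraries stand at 27.4 and 26.3 above all others, and at Psmb8 the vehicle libraries stand at 18.1 and 19.8 above all others.

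With AA, 4 proteasome gene-end peaks were higher and 2 lower than in vehicle, beside 14.6% and 7.63% of all gene-end peaks and 16.7% and 13.8% of all tested peaks. The members' shares were 9.76% and 4.88%, under the general ones. The median log2 change was 0.09, against 0.05 for all gene-end peaks. Psmd1 rose 1.32-fold (log2 0.40, SE 0.09; adjusted p = 0.000838). Psmd12, a lid subunit, went from 14.7 and 12.7 CPM to 16.6 and 18.3 (log2 0.35, SE 0.11; adjusted p = 0.0118), with PGE2 at 17.5 and 18.5. Psmd14 rose 1.25-fold (log2 0.32, SE 0.10; adjusted p = 0.0103) and Psmb7 1.26-fold (log2 0.33, SE 0.12; adjusted p = 0.0326). Values with PGE2 for Psmd1, Psmd12, Psmd14 and Psmb7 were 0.50, 0.39, 0.51 and 0.51. Since the vehicle libraries serve both comparisons, these values are not independent of each other.

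Calls with AA depended on single libraries. Without AA replicate 2 or without vehicle replicate 2, the calls of Psmd12, Psmd14 and Psmb7 were lost. The share of all gene-end peaks that were higher with AA fell in these fits as well. The Psmb7 call was also lost without AA replicate 1 or vehicle replicate 1. It was lost too with separate scaling (log2 0.27; adjusted p = 0.0815) and with library totals (log2 0.30; adjusted p = 0.0566). DESeq2 called 0 higher and 0 lower (Psmd1 adjusted p = 0.0643), beside 3.07% and 1.35% of all gene-end peaks. At an unadjusted p under 0.05, edgeR gave 12 of 41, beside 4667 of 14458 among all gene-end peaks. Beside Psmb8, the lower peak was the downstream one of Psmg2, from 8.49 and 8.46 CPM to 6.33 and 6.2, with PGE2 at 6.33 and 6.94 (log2 -0.44, SE 0.15; adjusted p = 0.0191). That call was lost without any of the AA or vehicle libraries. Psmb5, Psmb6 and Psmb10 had AA changes of 0.10, -0.13 and -0.00 and did not pass (adjusted p = 0.527, 0.374 and 0.98). Psmc1 had 0.29 (adjusted p = 0.061).

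AA and PGE2 were also set against each other, at their different doses. Here 0 proteasome gene-end peaks were higher with AA and 2 lower, beside 1.53% and 16.7% of all gene-end peaks and 5.07% and 4.88% of all tested peaks. Psme3 was 1.34-fold lower with AA than with PGE2 (log2 -0.43, SE 0.09; adjusted p = 0.00159). Psmd11 was 1.19-fold lower (log2 -0.25, SE 0.08; adjusted p = 0.0407), a call lost in 9 of 13 alternatives, among them the fit without PGE2 replicate 2, where the value was -0.10 (adjusted p = 0.584). DESeq2 gave 0 calls in either direction (Psme3 adjusted p = 0.144), beside 0.0775% higher and 2.60% lower of all gene-end peaks. At an unadjusted p under 0.05, edgeR had 13 of 41, beside 5039 of 14458 among all gene-end peaks. With gene-end peaks scaled separately, 3 members were higher and 1 lower with AA, beside 7.26% and 9.74% of all gene-end peaks. The median of the members moved from -0.09 to 0.02.

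Some proteasome genes share an end peak with a neighbour whose end is nearer, and these peaks belong to the neighbour under the rule. Such a peak was the only end peak of Psma7, Psmc2, Psmc5, Psmd13, Psme2 and Psmb9, of which Psmc2 also has a peak of its own further away. The peak at Psma7, an alpha subunit, and Ss18l1 held 15.6 and 16.9 CPM in the vehicle, 20.3 and 25.5 in the AA and 31.6 and 49 in the PGE2 libraries. The groups did not overlap, yet the PGE2 libraries were far apart, and the peak did not pass (log2 1.31, SE 0.30; adjusted p = 0.0587). At Psmc2, an ATPase, the peak given to Dnajc2 rose with AA (log2 0.39; adjusted p = 0.0116) and PGE2 (log2 0.82, SE 0.11; adjusted p = 3.78e-07), from 10.9 and 9.76 CPM to 12.7 and 14.5 and to 17.7 and 19. The peak that Psmb9, the immunoproteasome counterpart of Psmb6, shares with Tap1 held 49.5 and 46.3 CPM in the vehicle, 43.2 and 47.8 in the AA and 48.6 and 47.2 in the PGE2 libraries, so its groups overlapped. It gave no call, and neither did the peaks given to Ftsj3 at Psmc5, Sirt3 at Psmd13 and Rnf31 at Psme2.

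The 72 proteasome peaks outside gene ends were shallower, with a median of 39 to 45 counts per library, and 27 of them lay inside their own gene. Their median distance from a gene end was 9686 bp. With AA, 9 were higher and 9 lower, beside 16.6% and 13.5% of all other assigned peaks. With PGE2, 6 were higher and 4 lower, beside 10.8% and 10.2%. The members' shares (12.5% and 12.5%, then 8.33% and 5.56%) were near or under these. Assignment to the nearest gene end does not show that a peak acts on that gene.

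**Figure D5:**
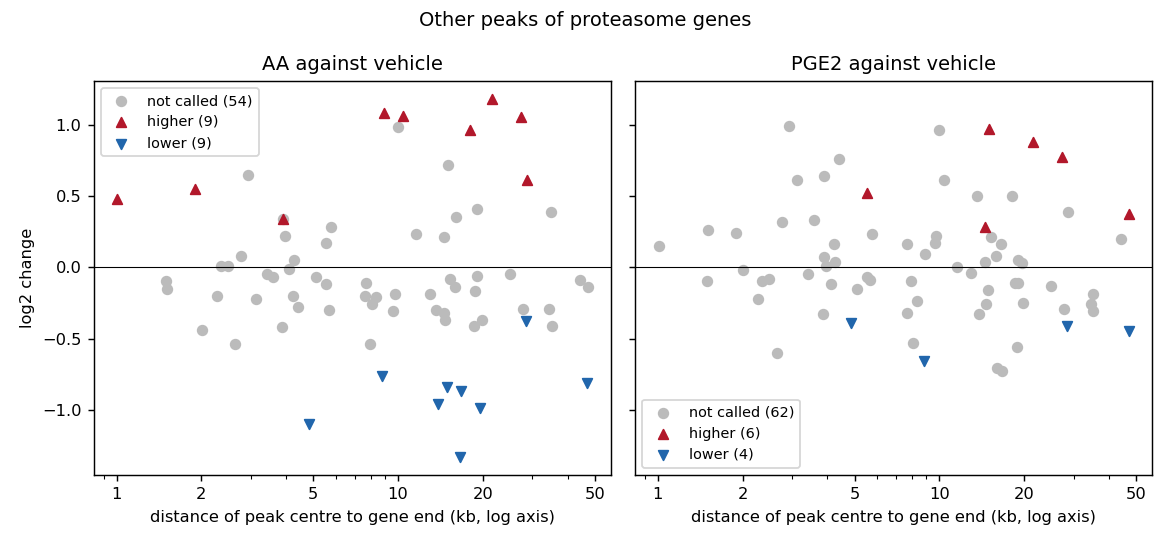
Log2 change against vehicle (vertical axis) of the 72 other proteasome peaks by distance from the gene end in kb (horizontal axis, log scale), for AA and PGE2; triangles passed an adjusted p of 0.05 and grey circles did not. With AA, 9 triangles lie above 0 and 9 under it, and with PGE2 6 and 4.

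The largest rise with AA was at a peak 21609 bp from the chaperone gene Psmg1 (chromosome 16, 95958020 to 95958628). It held 3.37 and 2.9 CPM in the vehicle, 6.26 and 8.07 in the AA and 5.8 and 5.78 in the PGE2 libraries. Both treatments lay well above vehicle, 2.27-fold with AA (log2 1.18, SE 0.19; adjusted p = 2.35e-06) and 1.85-fold with PGE2 (log2 0.88, SE 0.19; adjusted p = 0.00054). Of the 7 other peaks of Psmg1, 2 were higher with AA.

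Psmd14 also had 7 other peaks, of which 3 were higher and 1 lower with AA. One inside the gene (chromosome 2, 61738697 to 61739249) held 2.83 and 3.13 CPM in the vehicle, 5.27 and 7.17 in the AA and 5.03 and 5.17 in the PGE2 libraries. It rose with AA (log2 1.05, SE 0.20; adjusted p = 4.37e-05) and with PGE2 (log2 0.77, SE 0.20; adjusted p = 0.00378), in addition to the gene-end peak. The PGE2 call was lost without vehicle replicate 1 (adjusted p = 0.0577). The lower one, further into the gene, held 1.91 and 2.74 CPM in the vehicle, 0.844 and 1.55 in the AA and 2.82 and 1.93 in the PGE2 libraries (AA log2 -0.99, SE 0.33; adjusted p = 0.0205). That call was lost with DESeq2 (adjusted p = 0.239), without AA replicate 1 (log2 -0.58; adjusted p = 0.31) and without vehicle replicate 2 (log2 -0.70; adjusted p = 0.258).

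Some peaks rose with AA and gave no call with PGE2. A peak 3897 bp from Psmd4 held 33.4 and 31.9 CPM in the vehicle, 41.8 and 41 in the AA and 32.7 and 35.7 in the PGE2 libraries. Its AA libraries stood above all others (log2 0.34, SE 0.07; adjusted p = 0.000387), and it was higher with AA than with PGE2 (log2 0.28; adjusted p = 0.0118). A peak inside Psmd11 held 0.995 and 1.68, then 2.53 and 3.18, then 1.37 and 1.46 CPM, in the same order, a level of few reads (AA log2 1.08, SE 0.30; adjusted p = 0.00477). The difference from PGE2 also passed (log2 0.99; adjusted p = 0.0243), but was no longer called when any of the AA or PGE2 libraries was left out. For Psmd4, the difference from PGE2 was not called without either AA library or without PGE2 replicate 1. DESeq2 called neither difference between the treatments. Peaks by Psma6 (log2 1.06; adjusted p = 0.00501) and Psmb4 (log2 0.55; adjusted p = 0.00706) rose with AA as well. DESeq2 gave none of these AA calls at Psmd4, Psmd11, Psma6 and Psmb4 (adjusted p = 0.0585, 0.133, 0.133 and 0.187). The Psmd11 call was also lost without AA replicate 2 (adjusted p = 0.0767) or vehicle replicate 1 (log2 0.76; adjusted p = 0.118), and those of Psma6 and Psmb4 without vehicle replicate 2 (adjusted p = 0.0544 and 0.0731).

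The clearest fall was 47066 bp from Psma1 (chromosome 7, 114322642 to 114323723), near the limit of assignment. It held 29.1 and 29.9 CPM in the vehicle, 16.7 and 17 in the AA and 21 and 22.1 in the PGE2 libraries. All 3 groups were apart, with AA lowest. The fall was 1.75-fold with AA (log2 -0.81, SE 0.09; adjusted p = 2.05e-09) and 1.37-fold with PGE2 (log2 -0.45, SE 0.09; adjusted p = 0.000121), and AA was lower than PGE2 (log2 -0.36; adjusted p = 0.0105).

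A peak inside Psmg2 showed the same order, with 9.49 and 8.46 CPM in the vehicle, 4.08 and 4.32 in the AA and 6.56 and 7.17 in the PGE2 libraries. It fell 2.14-fold with AA (log2 -1.10, SE 0.16; adjusted p = 5.15e-07) and less with PGE2 (log2 -0.39, SE 0.14; adjusted p = 0.0417), and the difference between the treatments passed (log2 -0.71; adjusted p = 0.00422). Its PGE2 call was lost without either vehicle library or either PGE2 library.

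Psme4 had a peak inside the gene (chromosome 11, 30871967 to 30872742) with 8.34 and 9.38 CPM in the vehicle, 5.63 and 4.81 in the AA and 5.03 and 6.17 in the PGE2 libraries. Both treatments lay under vehicle (AA log2 -0.76, SE 0.16, adjusted p = 0.000171; PGE2 log2 -0.66, SE 0.15, adjusted p = 0.000988). A second peak, 16623 bp from the gene, held 2.68 and 1.91 CPM in the vehicle, 0.844 and 0.978 in the AA and 2.36 and 2.78 in the PGE2 libraries. There the vehicle and PGE2 libraries overlapped and AA was lowest, 2.82-fold under PGE2 (log2 -1.49, SE 0.33; adjusted p = 0.00214). Beside the chaperone gene Psmg4, 2 of 3 peaks fell with AA (log2 -0.96 and -0.84; adjusted p = 0.000179 and 0.000387), and a peak 28496 bp from Psma6 fell with AA (log2 -0.38; adjusted p = 0.00733) and PGE2 (log2 -0.41; adjusted p = 0.00479). Both Psma6 calls were lost with DESeq2 and without vehicle replicate 2, and the AA call also without AA replicate 2 (log2 -0.24; adjusted p = 0.205). DESeq2 did not call the PGE2 fall inside Psme4 (adjusted p = 0.0827).

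Start-site peaks of 4 genes counted as other peaks because they lie over 1 kb from both ends of the whole annotated gene: Psma3, Psma6, Psmc2 and Psmf1. The one of the alpha subunit Psma3 (chromosome 12, 70974296 to 70975373) held 28 and 29.7 CPM in the vehicle, 30.4 and 34.8 in the AA and 38.6 and 43.9 in the PGE2 libraries. The PGE2 libraries stood above the rest (log2 0.52, SE 0.08; adjusted p = 4.02e-06), a 1.43-fold rise. That of Psma6 rose 1.22-fold (log2 0.28, SE 0.08; adjusted p = 0.0087), from 28.8 and 27.1 to 31.9 and 36.1 CPM. That call was lost with DESeq2 (adjusted p = 0.214), without PGE2 replicate 2 (log2 0.19; adjusted p = 0.156) and without vehicle replicate 2 (adjusted p = 0.127). Rises with PGE2 were also called at low-count or distant peaks of Psme4 (log2 0.97; adjusted p = 0.0376) and of the inhibitor Psmf1 (log2 0.37; adjusted p = 0.0498). Psme4 was no longer called without PGE2 replicate 2 (adjusted p = 0.318) or either vehicle library (adjusted p = 0.255 and 0.0602), and the Psmf1 call under most alternatives.

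Between AA and PGE2, 2 of the other peaks were higher and 10 lower with AA, shares of 2.78% and 13.9%, beside 5.50% and 2.69% of all other assigned peaks. The share of lower peaks was above the general one, and it is given as a count with no test. It moved with the setting: DESeq2 gave 0 and 0, beside 229 higher and 353 lower of all peaks. Calls of the lower peaks were lost without AA replicate 1, where fewer of all peaks passed as well. Log2 values of the named lower peaks kept their sign there but were smaller in size. They were -1.37 (from -1.49) for Psme4, -0.66 (from -0.71) for Psmg2 and -0.34 (from -0.36) for Psma1. Those of Psma3, Psmg4 and Psmc2 were -0.23, -0.57 and -0.33 (from -0.34, -0.68 and -0.40). At an unadjusted p under 0.05, edgeR gave 17 of 72, beside 11829 of 56776 among all other assigned peaks. The 10 belonged to 9 genes, and those of Psma3 (log2 -0.34; adjusted p = 0.00355) and Psmc2 (log2 -0.40; adjusted p = 0.0161) were start-site peaks.

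Genes that work with the proteasome were listed apart, among them shuttles, deubiquitinases, assembly factors and the factors that drive proteasome genes. Of 34 listed, 28 had 32 gene-end peaks. With AA, 8 of the 32 were higher and 0 lower (median log2 0.14), beside 14.6% and 7.63% of all gene-end peaks. With PGE2, 17 were higher and 0 lower (median 0.28), beside 32.0% and 5.33%. Between AA and PGE2, 0 were higher and 5 lower with AA (median -0.19), beside 1.53% and 16.7%. With gene-end peaks scaled separately, the PGE2 split was 11 higher and 5 lower, with a median of 0.11, beside 20.3% and 19.4% of all gene-end peaks. These counts have no test of their own.

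Adrm1, the ubiquitin receptor on which the deubiquitinase Uchl5 docks, held 35.2 and 33.9 CPM in the vehicle, 56.5 and 58.4 in the AA and 59.6 and 72.5 in the PGE2 libraries. Both treatments stood far above vehicle (AA log2 0.73, SE 0.08, adjusted p = 4.02e-09; PGE2 log2 0.93, SE 0.07, adjusted p = 6.34e-11). Uchl5 rose from 43.1 and 40.2 CPM to 47.5 and 55.6 with AA (log2 0.31; adjusted p = 0.000838) and 55.7 and 58.4 with PGE2 (log2 0.45; adjusted p = 3.27e-06). Its treated libraries all lay above vehicle. The shuttle gene Rad23b held 30.2 and 27.9, 36 and 36.9, and 45.4 and 48.3 CPM, in the order vehicle, AA, PGE2, and the PGE2 rise was log2 0.69 (SE 0.07; adjusted p = 1.81e-09). Nfe2l1, which encodes a transcription factor of proteasome genes, held 72.4 and 72.7 CPM in the vehicle, 73.8 and 71.7 in the AA and 77.5 and 76 in the PGE2 libraries and gave no call (adjusted p = 0.958 and 0.301). Nfe2l2, which encodes a related factor, held 120 and 121, 137 and 136, and 132 and 144 CPM, in the same order. Its treated libraries all lay above vehicle, and it rose with AA (log2 0.18, SE 0.05; adjusted p = 0.00383) and PGE2 (log2 0.19, SE 0.05; adjusted p = 0.00213). For Nfe2l2, both calls were lost with DESeq2 (adjusted p = 0.208 with AA and 0.204 with PGE2). The PGE2 call for Nfe2l2 was also lost with separate scaling of gene-end peaks (log2 0.02; adjusted p = 0.81) and without PGE2 replicate 2 (log2 0.13; adjusted p = 0.0718).

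In the RefSeq windows of 300 bases (250 before and 50 after a start site), 7 motifs were searched on both strands, and matches of different motifs may share bases. The 46 proteasome windows came from 42 genes, 4 of which had 2 windows. Their median number of CG pairs was 19, against 13 in all 21263 windows of protein-coding genes. CCGGAAG was found in 17 of the 46 (37%), against 11.6% of all, and in 38.5% against 20% of windows lying whole in a peak. The 17 include both windows of Psmc2 and windows of Psmc3ip and Psme3ip1, which are no subunits. GAAANNGAA, an interferon response motif, was in 15.2% against 8.15%, and in 17.9% against 6.19% of windows whole in a peak. TGACNNNGC, the core of the antioxidant response element that Nfe2l1 and Nfe2l2 are known to bind, was in 13% and 13% (15.4% and 15.2% of windows whole in a peak). The other shares were 32.6% against 38.2% for CCAAT, 52.2% against 46.2% for the GC box GGGCGG, 4.35% against 1.83% for the YY1 motif AAGATGGCG and 8.7% against 12.6% for TATAAA. In windows whole in a peak they were, in that order, 30.8% against 39.8%, 61.5% against 69%, 5.13% against 3.26% and 10.3% against 6.34%, so the direction turned for the GC box and for TATAAA.

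Among proteasome start-site peaks, CCGGAAG lay in the window of 7 of 12 genes that were higher with PGE2 (Psma6, Psmc6, Psmd11, Psmd12, Psmd6, Psme3 and Psmg1), 0 of 2 that were lower and 8 of 21 with no call. Psmd1 and Psmd14, printed above, were among the higher ones without it. These counts are descriptions with no test, and a match is not a bound site. The same split was not made for start-site peaks of other genes. No link between the motif and the change is therefore read from the counts.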

How the data were processed

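ATAC-seq read pairs over consensus peaks were deposited as raw counts for 6 libraries. Per the file headers, the authors counted them with featureCounts 1.6.3. The submitters' processing notes name Trim Galore, BWA, Picard, SAMtools, MACS2 and build mm10. No settings for these tools are given in the sources used here. Members and lists were chosen with earlier results of these data known. Low peaks were removed with filterByExpr (89347 kept), libraries scaled by TMM, and a single model with a group term was fitted to all 6 libraries with edgeR 4.0.16 (R 4.3.3; robust quasi-likelihood F-test). P-values were Benjamini-Hochberg adjusted over all tested peaks, with calls at 0.05. The SE of a log2 change is its size divided by the square root of F. Alternatives were DESeq2 1.42.0, other scalings, no filter, only the groups compared, a replicate block, other distances and leaving out each library. Named peaks were, per comparison and direction, the 6 gene-end and 6 other called peaks with the smallest p (1 per gene), the catalytic subunits, the highest and lowest gene-end peaks, and 3 partner peaks per direction. Some items that these rules name are not reported here. Further genes were named after their values were seen. Replicate numbers did not pair the libraries (correlations of deviations 0.005, -0.02 and 0.036). Library pairs of a group correlated at 0.981 to 0.982, and their chi-square per degree of freedom was 1.09 in vehicle, 1.12 with AA and 1.57 with PGE2. The fit was checked on simulated counts. Promoter sequences came from RefSeq, GRCm38.p6.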

Additional observations from a re-analysis of the deposited data

How the results depend on the processing

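Members outside gene ends held a median of only 39 to 45 counts per library, which with 2 libraries a group limits their precision, and many counts moved with the setting. The cause was not tested. DESeq2 called fewer peaks. Against vehicle, it gave AA 0 higher and 0 lower gene-end members, 2 and 4 other members, and 6040 and 2951 of all peaks. For PGE2 it gave 7 and 0, 2 and 1, and 5284 and 2077. For AA against PGE2 it gave 0 lower gene-end members, 0 and 0 other members, and 229 and 353 of all peaks. Separate scaling of gene-end peaks gave 7 higher and 6 lower gene-end members with PGE2, and 3 and 1 for AA against PGE2. Fitting only the groups compared gave 7 higher with AA, and 1 lower for AA against PGE2, where size factors of the RLE kind also gave 1. The replicate block gave 4 lower there, where same-numbered libraries share only a number, and moved no other member count by over 1.5 times. Peaks within 1 kb of the tabulated start gave 1 lower with AA and 4 lower for AA against PGE2. Leaving out peaks near another gene's end, an alternative chosen after seeing the data, gave 1 lower with AA and 0 with PGE2. Within 10 kb, the other members were 4 and 2 with AA, 1 and 2 with PGE2, and 4 lower for AA against PGE2.

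For the partner list, whose alternatives were also chosen after seeing the data, AA gave 13 higher with only the groups compared, 2 with DESeq2, and 2 lower with separate scaling. PGE2 gave 11 higher and 5 lower with separate scaling and 1 lower with library totals. AA against PGE2 gave 2 higher with separate scaling and 1 lower with DESeq2.

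Leaving out 1 library at a time gave these ranges. With AA, higher and lower gene-end members ran from 1 to 7 and 0 to 2, other members from 6 to 10 and 6 to 10, and all peaks from 10360 to 16859 and 7782 to 13664. With PGE2 they ran from 8 to 13 and 0 to 2, 3 to 5 and 2 to 5, and 8199 to 12227 and 5363 to 9221. For AA against PGE2 they ran from 0 to 1 and 1 to 6, 0 to 2 and 0 to 8, and 1844 to 4433 and 1129 to 6123. Partner peaks ran from 4 to 13 and 0 to 1 with AA, 13 to 20 and 0 to 0 with PGE2, and 0 to 0 and 3 to 14 for AA against PGE2. Libraries that moved a count by over 1.5 times included these: 1 higher gene-end member with AA without AA replicate 2 or vehicle replicate 2 (7 without PGE2 replicate 2), 8 with PGE2 without either vehicle library, 3 higher other members with PGE2 without PGE2 replicate 2 or vehicle replicate 1, and 6 lower for AA against PGE2, with 14 partner peaks, without PGE2 replicate 1.

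Signs turned for values with no call: Psmb10 with AA was 0.01 with DESeq2, 0.01 with RLE factors, 0.00 with the replicate block, 0.02 without AA replicate 1 and 0.13 without vehicle replicate 2 (-0.12 without vehicle replicate 1), and with PGE2 it was 0.07 without vehicle replicate 2 (-0.20 without vehicle replicate 1). With separate scaling Psmb5 was -0.03 and Psmb6 -0.07 with PGE2.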
